A study of Homo sapiens with 12 samples.

Results

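CD44, PROM1, CD24, EPCAM, ALDH1A1, ALDH1A3, ALDH3A1 and ABCG2 are 8 genes whose products are widely used to sort cells with stem cell properties out of carcinomas. They were found by an exact match of the gene symbol, each once, among the 60715 genes of the deposited table. The table holds RNA sequencing of HCC4006, LC-2/ad, NCI-H2009 and NCI-H2228, which are 4 established human cell lines of lung adenocarcinoma, the commonest lung cancer. Every line was sequenced in 3 states. In the attached state the lines grew in standard serum-containing medium on ordinary plates. In the detached states, cells of the same line were lifted with trypsin, put on an ultra-low attachment plate and collected after 1 day (detached day 1) or 7 days (detached day 7). Each line gave 1 library per state, so there were 4 libraries per state and 12 in all. The attached libraries are the controls, and their labels name no treatment. As background, the oncogene is an activating EGFR deletion in HCC4006, a fused RET in LC-2/ad and a fused ALK in NCI-H2228. The 4 lines are different tumours and not repeats of 1 culture. The series asked which genes change when such cells lose their attachment.

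CD44 is the main cell surface receptor for hyaluronan. PROM1, better known as CD133, is a membrane protein of cell protrusions, CD24 is a small lipid-anchored glycoprotein, and EPCAM is an adhesion molecule of epithelial cells. ALDH1A1 and ALDH1A3 oxidise retinaldehyde to retinoic acid, and ALDH3A1 oxidises medium-chain and aromatic aldehydes, among them products of lipid peroxidation. These enzymes are the usual candidates behind the fluorescent assay for aldehyde dehydrogenase activity. ABCG2 is an efflux pump that exports dyes and several cancer drugs and gives rise to the dye-excluding side population.

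Levels are given in TPM, which scales a count by transcript length and library. Estimated counts added up to between 31134420 and 41882024 per library, and mitochondrial transcripts took 0.53 to 3.39% of the TPM. The 6 epithelial markers summed to between 3420 and 18800 TPM over the 12 libraries, with KRT19 highest. Of the 5 leukocyte markers, CSF1R was the highest, with 3.17 TPM in attached NCI-H2009, and PTPRC reached at most 0.834 TPM. CD3E was listed at 0 in all attached and day 7 libraries, and the list summed to between 0.296 and 3.86 TPM. The 5 fibroblast markers summed to 7.34 to 348 TPM attached, 6.89 to 150 TPM at day 1 and 5.81 to 39.4 TPM at day 7. COL1A1 held the highest single value in each state and reached 347 TPM in attached NCI-H2228. LUM reached 43.4 TPM in attached LC-2/ad, and PDGFRA 9.16 TPM in LC-2/ad at day 1. The 5 endothelial markers summed to at most 13.2 TPM. Whether the fibroblast markers moved with the values below was not tested.

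CD44 (ENSG00000026508.20, chr11:35138882-35232402, GRCh38, plus strand) separated the lines more widely than the states. HCC4006 had 5194 TPM attached, 5698 TPM at day 1 and 3711 TPM at day 7. NCI-H2228 had 542.5 TPM attached, 525.8 TPM at day 1 and 287.7 TPM at day 7. In HCC4006, CD44 stood in place 12, 12 and 19 in these states among 19983 protein-coding genes ranked by TPM. NCI-H2009 had 118.0 TPM attached, 104.2 TPM at day 1 and 103.7 TPM at day 7, while LC-2/ad had 103.5 TPM attached, 87.88 TPM at day 1 and 141.2 TPM at day 7. The order was therefore HCC4006, NCI-H2228 and then the other two lines, whose ranges overlapped. Cell line and state were tested in a single quasi-likelihood model of edgeR over the 12 libraries and 17395 genes, with Benjamini-Hochberg adjustment. The cell line term of CD44 had an adjusted p of 6.35e-06. In that term the 3 states of a line stand in for replicates, since no line was sequenced more than once in a state.

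Against attached cells, CD44 had a log2 fold change of 0.09 ± 0.27 (SE, n = 4 lines) at day 1 and of -0.19 ± 0.27 at day 7, and edgeR's adjusted p was 0.876 at day 1 and 0.78 at day 7. On log2(TPM + 1) with limma, the day 1 difference was -0.08, below 0. Single lines went both ways at day 7, with -0.64 in NCI-H2228 and 0.59 in LC-2/ad in log2 CPM. Here and below, log2 CPM is the count scaled by library size and by TMM factors, which adjust for RNA composition, while a CPM or a CPM ratio is scaled by library size alone. The deposited TPM and counts of a gene together imply the transcript length behind the TPM. For CD44 that length was 2720, 3164 and 3229 bases in NCI-H2228 attached, at day 1 and at day 7, against 1856 to 2323 bases in the other 3 lines. ESRP1, an epithelial splicing factor known to act on CD44 exons, had 6.349, 7.232 and 10.48 TPM in the same 3 NCI-H2228 libraries and 34.12 to 53.87 TPM in the other 9. The lengths were examined after the data had been seen, they are not isoform measurements, and the part of splicing in them was not tested. A transcript of the opposite strand, CD44-AS1, reached at most 10.8 TPM.

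**Figure D1:**
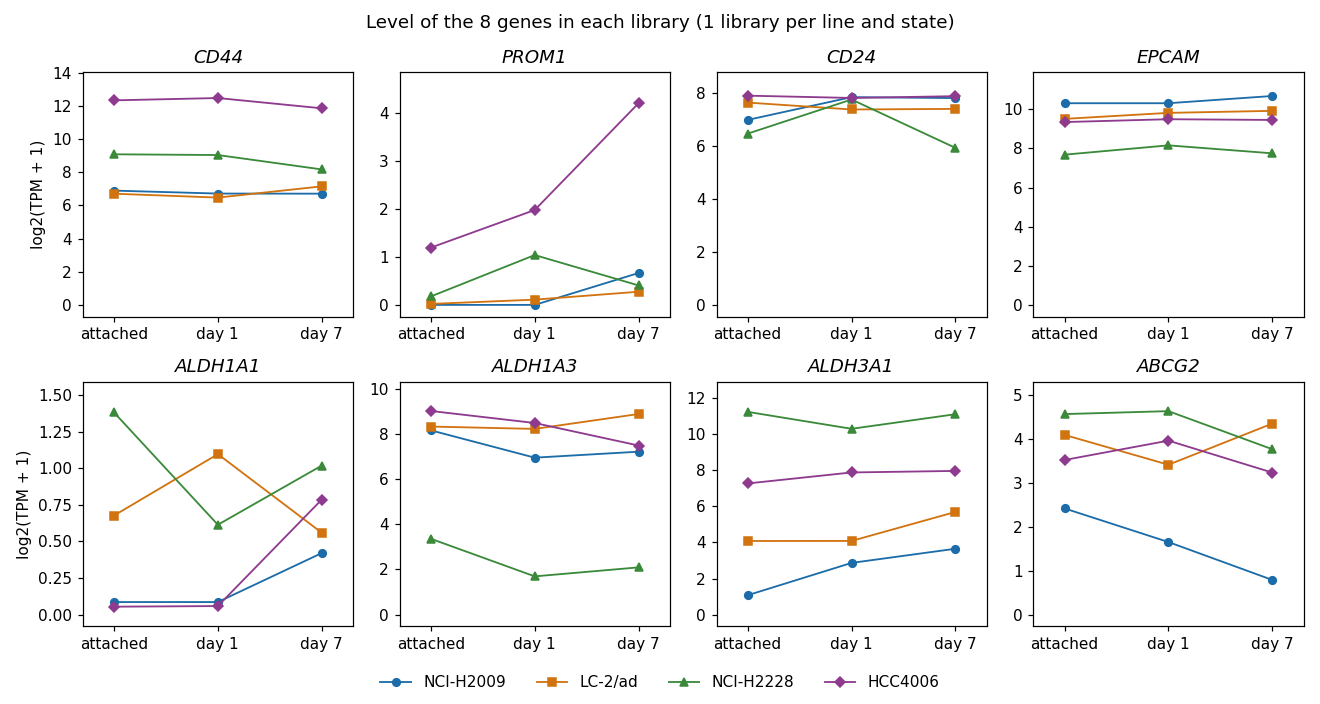
Level of each of the 8 genes, as log2(TPM + 1) on a log scale that differs between panels, in the attached, day 1 and day 7 states; each point is 1 library and each coloured line 1 cell line. EPCAM and ALDH3A1 keep the 4 lines apart in all 3 states, CD24 does not, and PROM1 in HCC4006 reaches 17.54 TPM at day 7.

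CD24 (ENSG00000272398.6, chr6:106969831-106975627, minus strand) was the most even of the 8 genes, with line means of log2 CPM at most 1.13 apart. HCC4006 had 240.3 TPM attached, 226.3 TPM at day 1 and 237.2 TPM at day 7. LC-2/ad had 200.2 TPM attached, 167.0 TPM at day 1 and 169.6 TPM at day 7. Both lines stayed within a narrow band. NCI-H2009 had 126.9 TPM attached, 231.2 TPM at day 1 and 225.6 TPM at day 7, and NCI-H2228 had 88.13 TPM attached, 217.2 TPM at day 1 and 60.37 TPM at day 7. The last value is the lowest of the 12, and every line's range overlapped that of its neighbour in the order. The cell line term did not pass (edgeR adjusted p = 0.148). Day 1 cells averaged 210.4 ± 29.5 TPM and attached cells 163.9 ± 69.0 TPM (SD, n = 4 each), a log2 fold change of 0.65 ± 0.33 (SE) with an edgeR adjusted p of 0.308. At day 7 the log2 fold change against attached cells was -0.03 ± 0.33 (edgeR adjusted p = 0.98), and limma on log2(TPM + 1) put it at 0.01. In the reference transcripts 9.9% of the distinct 31-base words of CD24 also occur in other genes, and the pseudogenes CD24P1 and CD24P2 were listed at 0 in every library.

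A high CD44 level with a low CD24 level is a common sorting gate, and the RNA ratio of CD44 to CD24 split the lines into pairs. In HCC4006 it was 21.61 attached, 25.18 at day 1 and 15.64 at day 7. In NCI-H2228 it was 6.156 attached, 2.42 at day 1 and 4.765 at day 7. CD44 thus exceeded CD24 in TPM in all 6 libraries of these lines. The ratio in NCI-H2009 was 0.930 attached, 0.451 at day 1 and 0.460 at day 7, and in LC-2/ad 0.517 attached, 0.526 at day 1 and 0.833 at day 7, so that CD24 was the higher of the pair in those 6 libraries. In bulk RNA, fewer cells of a type and less RNA per cell cannot be told apart, so the ratio says nothing of a gated fraction.

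EPCAM (ENSG00000119888.11, chr2:47345158-47387601, plus strand) was high in every library and ordered the lines without overlap. NCI-H2009 had 1268 TPM attached, 1266 TPM at day 1 and 1634 TPM at day 7. LC-2/ad had 728.3 TPM attached, 901.1 TPM at day 1 and 967.5 TPM at day 7. HCC4006 had 650.0 TPM attached, 719.2 TPM at day 1 and 700.6 TPM at day 7. The gap between these lines was small, since the lowest LC-2/ad library lay just above the highest HCC4006 library. NCI-H2228 had 204.0 TPM attached, 284.2 TPM at day 1 and 214.1 TPM at day 7, the lowest level of the 4 lines in each state. EPCAM passed the test of the cell line term with an edgeR adjusted p of 5.12e-05. In log2 CPM, EPCAM was higher in 4 of 4 lines at day 1 and again at day 7, though by 0.02 in NCI-H2228 at day 7. Without the TMM factors that line's CPM ratio of day 7 to attached was 0.995, below 1, and in TPM the NCI-H2009 ratio of day 1 to attached was 0.998. The fitted log2 fold changes were 0.33 ± 0.16 at day 1 and 0.15 ± 0.16 at day 7 (SE, n = 4 lines), with edgeR adjusted p of 0.283 at day 1 and 0.689 at day 7. Among all genes tested, 17.1% were higher in all 4 lines at day 1 and 14.6% at day 7.

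PROM1 (ENSG00000007062.12, chr4:15963076-16084378, minus strand) was low, and at or under 1.058 TPM outside HCC4006. HCC4006 had 1.291 TPM attached, 2.948 TPM at day 1 and 17.54 TPM at day 7, from 146, 308 and 1816 estimated counts. NCI-H2228 had 0.130 TPM attached, 1.058 TPM at day 1 and 0.325 TPM at day 7, from 9, 108 and 33 estimated counts. The lowest HCC4006 library was above every library of the other lines. LC-2/ad had 0.014 TPM attached, 0.079 TPM at day 1 and 0.210 TPM at day 7, from 1, 8 and 22 estimated counts. NCI-H2009 had no count attached or at day 1 and 56 estimated counts, 0.587 TPM, at day 7. The 3 lines below HCC4006 overlapped in range.

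Every line had more PROM1 at day 7 than attached. In HCC4006 the CPM ratio of day 7 to attached was 14.3, and in NCI-H2228 it was 3.77. In LC-2/ad it was 22.9, with an exact 95% interval from counting error of 3.7 to 945. In NCI-H2009, PROM1 was at least 17.5-fold higher at day 7 than attached, taking 3 counts per library as the limit that a count of 0 allows. The size of the difference thus varied between lines and rested on few reads in 3 of them. Detached day 7 cells averaged 4.67 ± 8.58 TPM and attached cells 0.359 ± 0.624 TPM (SD, n = 4 each). The fitted log2 fold change was 4.20 ± 1.05 (SE), with an unadjusted p of 0.00257 that ranked 327 among 17395 genes and an edgeR adjusted p of 0.136. It is a fitted value that depends on the model's handling of the libraries without counts. With DESeq2 the log2 fold change was 4.73 and the adjusted p 0.00036, and over the other alternatives the adjusted p lay between 0.123 and 1. With limma, whose pseudocount shrinks the change of low genes, the log2 difference was 1.04 on log2(TPM + 1) and 2.19 on log2(TPM + 0.1).

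At day 1, PROM1 gave a log2 fold change of 2.51 ± 1.05 against attached cells (SE, n = 4 lines; edgeR adjusted p = 0.224). NCI-H2228 had its highest value then, with a CPM ratio of day 1 to attached of 12.5, whereas the ratio in HCC4006 was 2.45. Without NCI-H2228 the day 1 log2 fold change was 1.58. For PROM1 the cell line term passed (edgeR adjusted p = 0.00174). It rested on HCC4006, since without that line the adjusted p was 0.171, against 5.36e-09 to 0.0122 over the other alternatives.

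ALDH1A3 and ALDH1A1 catalyse the same reaction but differed in level. ALDH1A3 exceeded ALDH1A1 in TPM by 247.4 to 13680 times in the 9 libraries of HCC4006, LC-2/ad and NCI-H2009, and by 3.18 to 5.77 times in the 3 of NCI-H2228. The upper end, from attached HCC4006, divides by an ALDH1A1 level of 2 estimated counts, so its size is poorly determined. ALDH1A1 also had 2 estimated counts in HCC4006 at day 1, and 3 attached and 4 at day 1 in NCI-H2009. At day 7 it had 12 in LC-2/ad and 15 in NCI-H2009. The ratios of these libraries are poorly determined as well. The promoters of both genes, taken from RefSeq (GRCh38.p14) as 250 bases before and 50 bases after the start, are shown because of the difference in level. The ALDH1A1 window is chr9:72953004-72953303 on the minus strand, and the ALDH1A3 window is chr15:100879581-100879880 on the plus strand. Each lies inside the span of its gene given below, so the RefSeq start used here is not the 5′ end of that span. Both are written 5′ to 3′ along the gene, and capitals mark GCGTG, the core of the xenobiotic response element, on either strand (as CACGC where it lies on the other).
ALDH1A1: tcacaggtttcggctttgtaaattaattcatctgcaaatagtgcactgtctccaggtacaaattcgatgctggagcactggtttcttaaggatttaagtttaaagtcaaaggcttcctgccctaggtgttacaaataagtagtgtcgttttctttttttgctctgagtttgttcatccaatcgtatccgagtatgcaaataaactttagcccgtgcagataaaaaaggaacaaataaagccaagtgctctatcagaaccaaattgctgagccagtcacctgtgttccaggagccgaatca
ALDH1A3: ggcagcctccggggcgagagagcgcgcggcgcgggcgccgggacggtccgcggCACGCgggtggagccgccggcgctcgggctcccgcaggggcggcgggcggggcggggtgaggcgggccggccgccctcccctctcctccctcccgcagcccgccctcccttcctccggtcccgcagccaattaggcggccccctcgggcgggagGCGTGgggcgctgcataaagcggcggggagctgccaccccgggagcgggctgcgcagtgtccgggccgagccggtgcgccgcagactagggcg
The ALDH1A3 window had 81.7% G and C, 46 CpG dinucleotides and an observed-to-expected CpG ratio of 0.923, against 40.3%, 7 and 0.574 in the ALDH1A1 window. The medians over 34943 windows of the table were 58.7% and 0.577. GCGTG occurred once on each strand for ALDH1A3 and not in the ALDH1A1 window, and on either strand in 36.5% of all windows. TGACNNNGC, the core of the antioxidant response element, occurred on neither strand of these windows and in 13.3% of all windows. Such matches describe letters only. Of the 8 genes 6 had windows in the table, 15 in all. ALDH3A1 and EPCAM had none.

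ALDH1A3 (ENSG00000184254.17, chr15:100877714-100916626, plus strand) was high in 3 lines. HCC4006 had 519.9 TPM attached, 359.0 TPM at day 1 and 179.1 TPM at day 7. LC-2/ad had 321.7 TPM attached, 299.2 TPM at day 1 and 473.8 TPM at day 7. NCI-H2009 had 286.4 TPM attached, 123.1 TPM at day 1 and 148.1 TPM at day 7. HCC4006 overlapped both of the other two in range, while all LC-2/ad libraries exceeded those of NCI-H2009. NCI-H2228 had 9.265 TPM attached, 2.233 TPM at day 1 and 3.262 TPM at day 7, far under the rest. For ALDH1A3 the cell line term passed (edgeR adjusted p = 5.88e-05) and rested on NCI-H2228, since without that line the adjusted p was 0.0688, against 2.81e-30 to 0.000339 over the other alternatives.

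ALDH1A3 was lower in 4 of 4 lines at day 1 than attached, with log2 CPM differences of -1.85 in NCI-H2228, -0.84 in NCI-H2009, -0.45 in HCC4006 and -0.10 in LC-2/ad. Of all genes tested, 16.5% were lower in all 4 lines. Detached day 1 cells averaged 195.9 ± 163.4 TPM and attached cells 284.3 ± 210.2 TPM (SD, n = 4 each). The log2 fold change was -0.83 ± 0.35 (SE; unadjusted p = 0.0409, edgeR adjusted p = 0.234). At day 7 it was -0.91 ± 0.36 (unadjusted p = 0.0293, edgeR adjusted p = 0.263), lower in 3 of 4 lines, with LC-2/ad at 0.51. Between day 7 and day 1 HCC4006 gave -1.02 and LC-2/ad 0.61, so the lines did not share a direction. In the reference transcripts, 26.1% of the distinct 31-base words of ALDH1A3 also occur in other genes. The overlapping opposite-strand transcript AC015712.2 reached at most 5.72 TPM over the 12 libraries and 0.29 to 0.585 TPM in NCI-H2228. Whether it shares reads with ALDH1A3 was not tested.

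ALDH3A1 (ENSG00000108602.18, chr17:19737984-19748943, minus strand) ordered the lines without overlap, and its line means of log2 CPM lay further apart than those of the other 7 genes. NCI-H2228 had 2433 TPM attached, 1268 TPM at day 1 and 2219 TPM at day 7, ranks 25, 87 and 29 among the protein-coding genes. HCC4006 had 154.1 TPM attached, 235.8 TPM at day 1 and 250.2 TPM at day 7. NCI-H2228 was above HCC4006 in every state, and both were above the rest. LC-2/ad had 15.94 TPM attached, 15.99 TPM at day 1 and 50.83 TPM at day 7. NCI-H2009 had 1.104 TPM attached, 6.296 TPM at day 1 and 11.58 TPM at day 7, the lowest values of the 12 libraries. For the cell line term edgeR's adjusted p was 3.78e-05. The line means of log2 CPM were at most 8.86 apart, beside 1.13 to 6.33 for the other genes. For genes with few counts, such as PROM1, the added prior count of 2 narrows this range. The order of the lines was the reverse of that of EPCAM.

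In ALDH3A1, detached day 7 cells were above attached cells in 3 of 4 lines, by 3.13 in NCI-H2009, 1.60 in LC-2/ad and 0.79 in HCC4006 in log2 CPM, with -0.10 in NCI-H2228. The fitted log2 fold change was 1.14 ± 0.51 (SE; unadjusted p = 0.0483, edgeR adjusted p = 0.314). At day 1 it was 0.53 ± 0.51 (edgeR adjusted p = 0.6), with 2.92 in NCI-H2009 and -0.79 in NCI-H2228. Without NCI-H2009 the day 1 value was -0.05. Day 7 was above day 1 in 4 of 4 lines, by 0.10 to 1.60 in log2 CPM, and the fitted difference was 0.61 ± 0.49 (edgeR adjusted p = 0.674). Among all genes tested, 9.61% were higher at day 7 than at day 1 in all 4 lines. The opposite-strand transcript AC005722.4 reached at most 7.24 TPM.

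ALDH1A1 (ENSG00000165092.13, chr9:72900671-73080442, minus strand), the member most often named in stem cell sorting, was low in every library. NCI-H2228 had 1.605 TPM attached, 0.530 TPM at day 1 and 1.025 TPM at day 7, and LC-2/ad had 0.598 TPM attached, 1.137 TPM at day 1 and 0.473 TPM at day 7. HCC4006 had 0.038 TPM attached, 0.041 TPM at day 1 and 0.724 TPM at day 7, from 2, 2 and 35 estimated counts. NCI-H2009 had 0.061 TPM attached, 0.061 TPM at day 1 and 0.338 TPM at day 7, from 3, 4 and 15 estimated counts. No library exceeded 1.605 TPM, and neighbouring lines overlapped. The CPM ratio of day 7 to attached was 20.2 in HCC4006 (exact 95% interval from counting error 5.18 to 173) and 4.68 in NCI-H2009 (1.32 to 25.2). The log2 CPM difference was -0.61 in NCI-H2228 and -1.23 in LC-2/ad, below 0 in both. In LC-2/ad it compares 12 estimated counts at day 7 with 33 attached, and its size depended on the scale. There the ratio of day 7 to attached was 0.3785 in CPM and 0.791 in TPM. Over the 4 lines the fitted log2 fold change was 1.25 ± 1.04 (SE; edgeR adjusted p = 0.597). Without HCC4006 it was 0.0906, without NCI-H2009 0.85, without LC-2/ad 1.82 and without NCI-H2228 2.24. The cell line term had an edgeR adjusted p of 0.085, and passed with DESeq2 (0.0334), with limma on log2(TPM + 1) (0.0445) and on log2(TPM + 0.1) (0.0275) and without LC-2/ad (0.0377), in a range of 0.0275 to 0.295 over all alternatives.

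As a share of the summed TPM of the 3 aldehyde dehydrogenase genes, ALDH1A3 made up 99.6% attached, 95.1% at day 1 and 92.55% at day 7 in NCI-H2009. In LC-2/ad its share was 95.1% attached, 94.6% at day 1 and 90.2% at day 7. ALDH3A1 made up 99.6% attached and 99.8% at both day 1 and day 7 in NCI-H2228. HCC4006 held both enzymes, with an ALDH1A3 share of 77.1% attached, 60.35% at day 1 and 41.65% at day 7, and an ALDH3A1 share of 22.9% attached, 39.6% at day 1 and 58.2% at day 7. The leading gene of the 3 was therefore another one at day 7 than attached in that line, which has 1 library per state and no replicate check. ALDH1A1 never exceeded 0.359% of the sum. The sum itself was 674.1, 594.8 and 430.1 TPM in HCC4006 attached, at day 1 and at day 7, and 2444, 1270 and 2223 TPM in NCI-H2228.

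**Figure D2:**
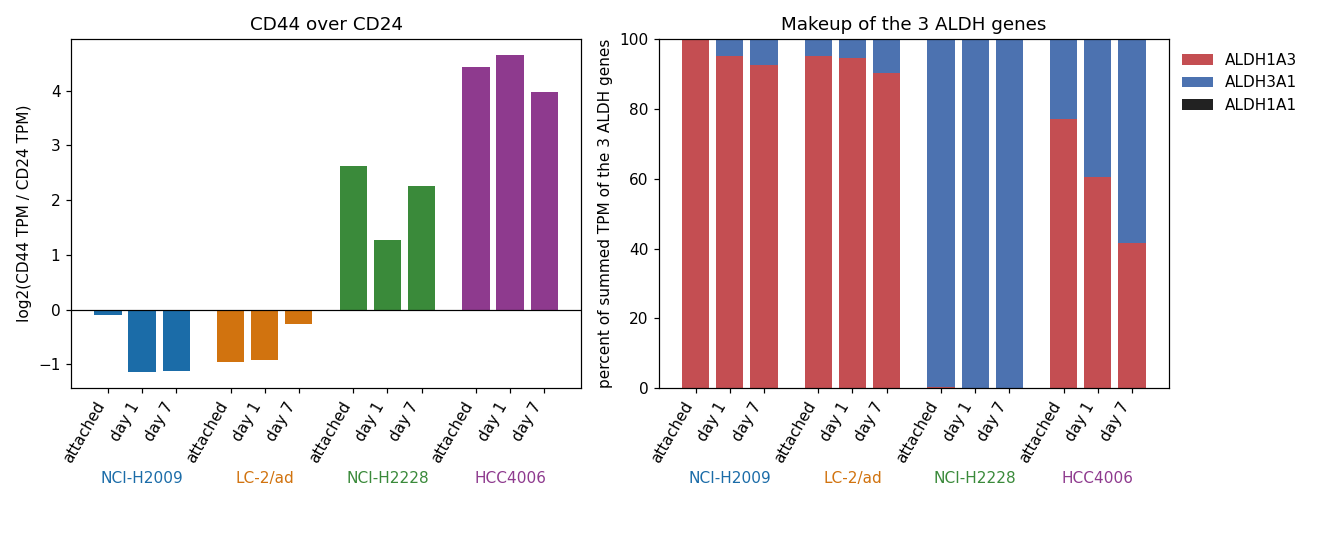
Left, log2 of the CD44 to CD24 ratio of TPM; right, the share of ALDH1A3, ALDH3A1 and ALDH1A1 in their summed TPM in percent; each bar is 1 library, grouped by cell line with attached, day 1 and day 7 from left to right, and there are no error bars since each bar is a single value. The ratio is above 0 on the log2 scale in the 6 libraries of NCI-H2228 and HCC4006, and in HCC4006 the ALDH3A1 share is 58.2% at day 7 and 22.9% attached.

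ABCG2 (ENSG00000118777.12, chr4:88090150-88231628, minus strand) was low to moderate. NCI-H2228 had 22.71 TPM attached, 23.84 TPM at day 1 and 12.60 TPM at day 7. LC-2/ad had 16.06 TPM attached, 9.655 TPM at day 1 and 19.41 TPM at day 7. HCC4006 had 10.48 TPM attached, 14.58 TPM at day 1 and 8.408 TPM at day 7. These 3 lines overlapped in range. NCI-H2009 had 4.344 TPM attached, 2.142 TPM at day 1 and 0.727 TPM at day 7, all under every library of the other lines. Differences between lines passed (edgeR adjusted p = 0.00421) but not without NCI-H2009 (0.118), against 1.12e-06 to 0.0152 over the other alternatives.

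The log2 fold change of ABCG2 against attached cells was 0.02 ± 0.47 at day 1 and -0.58 ± 0.48 at day 7 (SE, n = 4 lines; edgeR adjusted p = 0.985 at day 1 and 0.602 at day 7). At day 7 NCI-H2009 gave -2.70 and NCI-H2228 -0.89 in log2 CPM, while LC-2/ad gave 0.28 and HCC4006 0.15. The sign in HCC4006 depended on the scale, since its TPM ratio of day 7 to attached was 0.802, below 1. In NCI-H2009, the sign of the day 1 difference also depended on the scale. There ABCG2 had 4.85 CPM at day 1, against 5.61 CPM attached, a smaller gap than in TPM, while the log2 CPM difference, with TMM factors, was 0.05. The implied transcript length was 2904 bases in the day 1 library and 1758 bases in the attached library. Under limma on log2(TPM + 1) the day 1 log2 difference was -0.23, below 0.

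Across the 8 genes, the test of the cell line term passed for 6 of 8 genes, all but CD24 and ALDH1A1, beside 61.2% of all genes tested. That share is high enough that the count alone says little of these genes. Of the sum of squares of log2(TPM + 1) over the 12 libraries, the share between lines was 98.3% for CD44, 97% for EPCAM, 95.2% for both ALDH1A3 and ALDH3A1 and 83.7% for ABCG2. It was 65.8% for PROM1, 60.1% for ALDH1A1 and 48.3% for CD24, beside a median of 64.6% over all genes tested. The share between states was largest for PROM1, at 13.3%, and CD24, at 12.1%, beside an all-gene median of 11.3%, and was 0.285% for CD44.

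**Figure D3:**
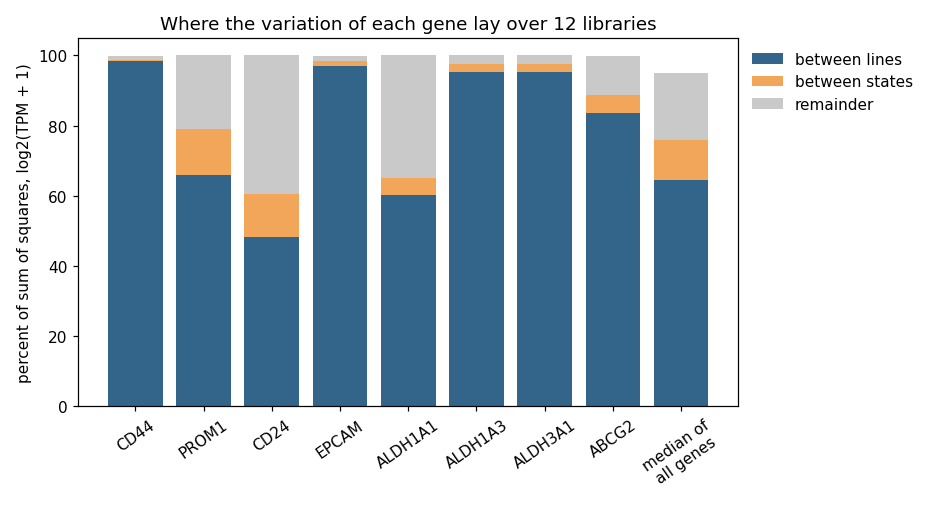
Percent of the sum of squares of log2(TPM + 1) over 12 libraries that lay between lines, between states and in the remainder, for each of the 8 genes and as the median of each share over all genes tested, whose medians need not add up to 100%. CD44 has 98.3% between lines and CD24 48.3%, against a median of 64.6%.

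No member passed the threshold in a state comparison with edgeR. At day 1 against attached the count was 0 of 8, beside 0.489% of all genes, and 2 of 8 (PROM1 and ALDH1A3) had an unadjusted p under 0.05, beside 19.6% of all genes. At day 7 against attached it was 0 of 8, beside 0.103%, and 3 of 8 (PROM1, ALDH1A3 and ALDH3A1) had an unadjusted p under 0.05, beside 15.7%. At day 7 against day 1 it was 0 of 8, where 0% of all genes passed, and 0 of 8 had an unadjusted p under 0.05, beside 9.78%. DESeq2 called 0 members at day 1, 1 at day 7 (PROM1) and 0 between the detached states, beside 9.82%, 6.68% and 1.11% of all genes. The day 1 and day 7 comparisons share their attached libraries. The same sign of the log2 CPM difference in all 4 lines was seen for 2 members at day 1 (EPCAM and ALDH1A3), beside 33.7% of all genes, and for 2 at day 7 (PROM1 and EPCAM), beside 28.4%. Between day 7 and day 1 it was seen for 1 member, ALDH3A1, beside 18.3%. The median log2 fold change of the members was 0.21 at day 1 and 0.06 at day 7, beside 0.01 at day 1 and 0.03 at day 7 over all genes. A miss of the threshold does not show that a level stayed the same. The 95% interval of the day 7 log2 fold change reached from -0.79 to 0.41 for CD44 and from -0.20 to 0.50 for EPCAM, but from -1.07 to 3.58 for ALDH1A1.

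**Figure D4:**
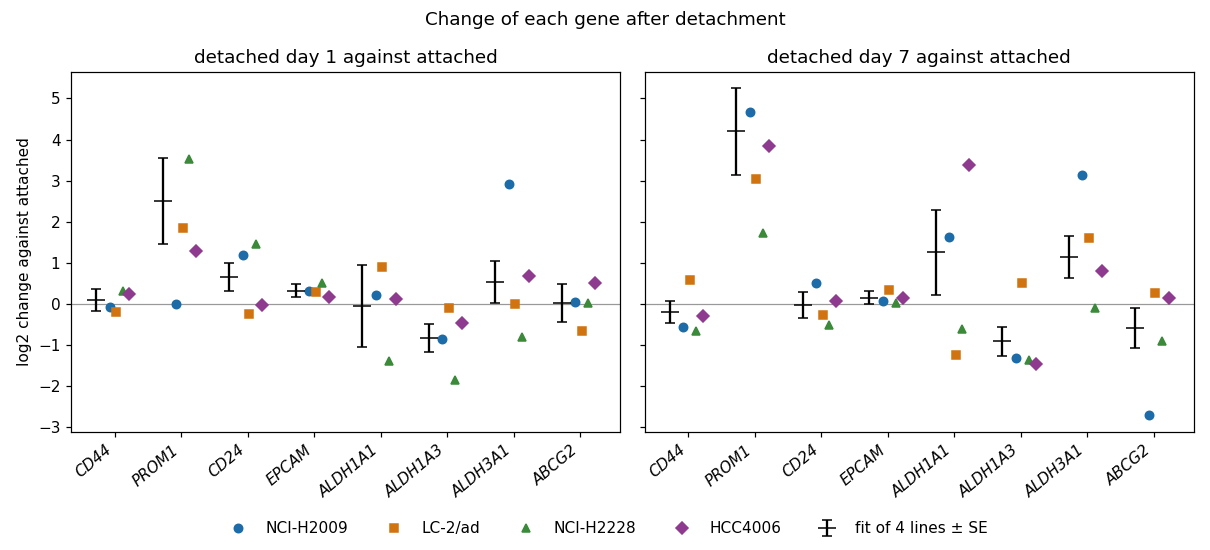
Log2 change against attached cells for each of the 8 genes at day 1 (left) and day 7 (right); coloured points are the 4 lines (log2 CPM after a prior count of 2 was added), and black bars are the edgeR fit of the 4 lines ± SE. PROM1 lies at 4.20 ± 1.05 at day 7, where its NCI-H2009 point compares 56 counts with none, and the CD44 and EPCAM fits lie close to 0 in both panels.

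In 8 lists of related genes, which hold 112 different genes of which 99 were tested, 0 genes passed edgeR's threshold in each of the 3 state comparisons. Unadjusted p under 0.05 was found for 22 of the 99 at day 1, 22 at day 7 and 12 between the detached states. That is 22.2% at day 1 and at day 7 and 12.1% between the detached states, beside the 19.6%, 15.7% and 9.78% of all genes given above. DESeq2 called 13 higher and 1 lower at day 1, 5 higher and 4 lower at day 7, and 0 higher and 3 lower between day 7 and day 1. With that tool 14.1% of the listed genes and 9.82% of all genes passed at day 1, 9.09% of the listed genes and 6.68% of all genes at day 7, and 3.03% of the listed genes and 1.11% of all genes between the detached states. DESeq2's counts for each list are given below beside edgeR's, with 0 where a comparison is not named. Signs over the 4 lines are those of the log2 CPM difference. Among all genes tested, 33.7% at day 1 and 28.4% at day 7 had the same sign in all 4 lines.

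Among 15 tested genes of the other aldehyde dehydrogenases, 0 rose and 0 fell with edgeR, and 3 at day 1 and 2 at day 7 had an unadjusted p under 0.05. DESeq2 called 2 of them higher at day 1. Their median log2 fold change was 0.36 at day 1 and 0.29 at day 7. ALDH1L1, a folate enzyme, averaged 14.8 ± 17.2 TPM at day 1 and 5.2 ± 5.85 TPM attached (SD, n = 4 each). Its log2 fold change was 1.47 ± 0.40 (SE), with an edgeR adjusted p of 0.102, and was positive in 4 of 4 lines. In NCI-H2009 the sign compares 0.01 TPM at day 1 with 0 TPM attached, so it rests on almost no reads. ALDH6A1, of valine breakdown, gave 1.18 ± 0.36 at day 1 (adjusted p = 0.131) and ALDH4A1, of proline breakdown, 0.49 ± 0.21 at day 7 (adjusted p = 0.305). In the list on retinoid metabolism and response, to which the products of ALDH1A1 and ALDH1A3 belong, 0 of 18 rose or fell with edgeR, with a median of 0.60 at day 1 and -0.03 at day 7. Unadjusted p under 0.05 was found for 5 of 18 at day 1, 2 at day 7 and 3 between the detached states, and DESeq2 called 4 higher at day 1. DHRS9, a retinol dehydrogenase, gave 2.0 ± 0.91 at day 7 (adjusted p = 0.327), with 6.27 in NCI-H2009 and -0.30 in NCI-H2228. RARG, a retinoic acid receptor, gave -0.40 ± 0.17 (adjusted p = 0.3), and TGM2, a transglutaminase induced by retinoic acid, 0.80 ± 0.36 (adjusted p = 0.319).

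Of the enzymes of hyaluronan and the partners of CD44, 17 genes were tested, 0 rose or fell with edgeR, and 5 at day 1 and 3 at day 7 had an unadjusted p under 0.05. With DESeq2 2 were higher at day 1, and 1 was higher and 1 lower at day 7. CD74, a partner of CD44 in signalling by the cytokine MIF, averaged 1901 ± 2304 TPM at day 7 and 592.6 ± 676.5 TPM attached (SD, n = 4 each), a log2 fold change of 1.69 ± 0.41 (SE; edgeR adjusted p = 0.134), positive in 4 of 4 lines. MSN, which ties CD44 to actin, gave -1.02 ± 0.27 (adjusted p = 0.155), negative in 4 of 4 lines. HYAL2, a hyaluronidase, gave 0.47 ± 0.17 (adjusted p = 0.238). The list's median log2 fold change was -0.03 at day 1 and 0.04 at day 7, near that of all genes.

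EPCAM's partners and the proteases around it gave the largest median of the 8 lists at day 7 (0.50) and one of 0.51 at day 1, though 0 of 12 rose or fell with edgeR. Unadjusted p under 0.05 was found for 6 of 12 at day 1 and 6 at day 7, and DESeq2 called 4 higher at day 1 and 3 higher at day 7. CLDN7, a claudin that binds EPCAM, averaged 733.5 ± 516.9 TPM at day 7 and 416.9 ± 288.6 TPM attached (SD, n = 4 each), a log2 fold change of 0.84 ± 0.26 (SE; adjusted p = 0.187), positive in 4 of 4 lines. SPINT1, an inhibitor of membrane serine proteases, gave 0.78 ± 0.24 (adjusted p = 0.179), positive in 4 of 4 lines in log2 CPM. In TPM, however, SPINT1 in HCC4006 was lower at day 7, at 393.4 TPM against 405.5 TPM attached. The PROM1 list, of which 6 of 11 genes were tested, had a median of 0.34 at day 7 with 0 genes past the threshold with edgeR or DESeq2 and 1 with an unadjusted p under 0.05. That gene, EPS8, an actin regulator of microvilli, gave 0.91 ± 0.33 (adjusted p = 0.232). VIL1, or villin, gave 1.67 ± 0.79 (adjusted p = 0.342) from a mean of 1.18 ± 1.46 TPM at day 7 and 0.0820 ± 0.0708 TPM attached. In log2 CPM it gave 2.83 in LC-2/ad and 2.28 in NCI-H2009, but 0.04 in NCI-H2228 and -0.25 in HCC4006. Attached and at day 7, NCI-H2228 and HCC4006 had at most 0.032 TPM of VIL1.

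Other surface genes used to sort stem cells showed 0 of 15 past the threshold with edgeR, and 2 at day 1 and 5 at day 7 with an unadjusted p under 0.05. With DESeq2 1 was lower at day 1, 2 at day 7 and 2 between the detached states. At day 7, ENG gave -0.61 ± 0.17 (adjusted p = 0.162), MCAM -1.62 ± 0.47 (adjusted p = 0.162) and L1CAM -1.90 ± 0.68 (adjusted p = 0.23). In log2 CPM, ENG and MCAM were lower in 4 of 4 lines, L1CAM in 2. For MCAM the HCC4006 difference was only -0.07, and its TPM there was 36.42 attached and 36.54 at day 7. Beside ABCG2, 0 of 9 efflux transporters passed with edgeR, with 0 at day 1 and 2 at day 7 under an unadjusted p of 0.05, and 1 was higher at day 7 with DESeq2. ABCA3, a lipid transporter of lung surfactant, gave 1.29 ± 0.44 (adjusted p = 0.211), ABCC3 0.71 ± 0.31 (adjusted p = 0.299) and ABCC6 0.66 ± 0.36 (adjusted p = 0.404) at day 7. ABCC2, which exports conjugated compounds, had 69.16 TPM attached, 65.81 TPM at day 1 and 90.70 TPM at day 7 in NCI-H2228, and at most 3.211 TPM in the other 9 libraries. That gene was singled out after its values had been seen. Of the stemness transcription factors, 0 of 9 passed with edgeR, and 1 at day 1 and 1 at day 7 had an unadjusted p under 0.05. With DESeq2 1 was higher at day 1, 1 lower at day 7 and 1 lower between the detached states. ID1, an inhibitor of differentiation, gave -1.19 ± 0.24 at day 7 (adjusted p = 0.104), lower in 4 of 4 lines. SOX2 gave 1.18 ± 0.55 (adjusted p = 0.341), with 2.55 in NCI-H2009, 1.75 in HCC4006, 0.06 in LC-2/ad and -0.65 in NCI-H2228. NANOG and POU5F1, too low to be tested, did not exceed 0.232 TPM in any library.

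Genes whose log2(TPM + 1) over the 12 libraries was most like that of a member were sought among 9924 protein-coding genes with a mean of at least 5 TPM. The 12 libraries come from 4 lines and share their line and its depth, so these Pearson correlations describe the lines and carry no test. For CD44 the closest were APLP1 (0.985), LRRN2 (0.982) and KHDRBS3 (0.972), and for PROM1 CAPN13 (0.949), PDE4B (0.937) and TESC (0.937). For EPCAM they were KLC3 (0.984), BSPRY (0.982) and SULT2B1 (0.977), and for CD24 OAT (0.928), SLC43A2 (0.914) and CDK18 (0.907). ALDH3A1 was closest to SMAD2 (0.978), PMP22 (0.976) and CLU (0.975), ALDH1A3 to ACP1 (0.972), MDH2 (0.971) and CORO1A (0.968), ABCG2 to ZC4H2 (0.946), SMAD7 (0.939) and MSX2 (0.924), and ALDH1A1 to FAM161B (0.857), ZNF346 (0.855) and ZCCHC8 (0.853). After each line's mean had been subtracted, the closest was ARHGAP45 for CD44 (0.935), CAPN13 again for PROM1 (0.969), SYNE4 for CD24 (0.932), DDRGK1 and SGK1 for EPCAM (both 0.956), FOXK2 for ALDH1A1 (0.897), RUSC1 for ALDH1A3 (0.976), MAFF for ALDH3A1 (0.962) and EMP3 for ABCG2 (0.939). Within the 8 genes, EPCAM and ALDH3A1 were the most opposed over the libraries (-0.913) and EPCAM and ALDH1A3 the most alike (0.81), but within lines, with line means subtracted, these values were 0.341 and -0.37.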

How the data were processed

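RNA of 4 cell lines in 3 states was sequenced, 12 libraries in all. Per the labels' protocols, total RNA came from the RNeasy Mini Kit, and the SMART-Seq v4 PLUS Kit, which primes on poly(A) tails, gave the libraries. The build in the submitters' processing notes is GRCh38. Which aligner, quantifier or strand setting was used is not given in the sources used here. The authors deposited TPM, per the file headers, adding up to 1000000 in each library. Beside it the authors deposited an estimated count per gene and library, without normalization, and 31.5% of those above 0 are not whole numbers.

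Estimated counts were rounded. Genes were filtered with filterByExpr by state, scaled with TMM factors and tested with edgeR 4.0.16 (robust quasi-likelihood, R 4.3.3) in 1 model with state and cell line over the 12 libraries, with 6 residual degrees of freedom. Adjusted p is Benjamini-Hochberg over 17395 genes with a threshold of 0.05. The SE is the log2 fold change divided by the square root of the F statistic and so restates the test. The biological coefficient of variation was 38.7%. A single line's value is its log2 CPM in a state minus that in another, with TMM factors and a prior count of 2, and has no replicate, while CPM and CPM ratios use the library totals alone.

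Libraries are paired by their cell line. Deviations from the state means correlated at 0.681 to 0.845 in 12 library pairs of the same line. In 36 pairs of different lines they correlated at -0.39 to -0.084. Centring on the state mean makes the deviations cancel within a state, so the negative values between different lines follow in part from that step. Separate cultures within a line were not sequenced, so p-values speak of changes shared by lines. DESeq2 1.42.0 and limma 3.58.1 on log2(TPM + 1) and log2(TPM + 0.1) were alternatives, as were other scalings, filters and designs and leaving out each line. The scripts were tested on simulated data.

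The members and gene lists were chosen with earlier results of these data known. All 8 members are named. Of each list, every gene past the threshold is named, and otherwise the 3 with the smallest unadjusted p at day 7 against attached. The ALDH1L1 and ALDH6A1 values are given at day 1. For each member, the 3 genes with the highest Pearson r are named. ID3, which the rule on lists also names, had a log2 fold change of -0.89 at day 7. Some genes that the rule names are not reported here. ESRP1, ESRP2, CD44-AS1, ABCC2, NANOG and POU5F1 were singled out after their values had been seen, as was the implied transcript length. That length is the estimated count over the TPM, scaled in each library on 568 to 701 genes that have a single transcript. In those genes it lay between 0.794 and 1.17 times the annotated length from the 5th to the 95th percentile. Transcripts for shared 31-base words come from the GENCODE release given with the data. Intervals and limits for counts cover counting error only, since PCR copies were not marked.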

Additional observations from a re-analysis of the deposited data

Results flagged for a closer look

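For each of the 8 genes, the TPM of the 4 lines was examined in each state for a library far from the other 3, by Dixon's ratio of the gap to the whole range. Of 24 such groups 7 passed. The rate of about 1 in 20 by chance holds for normally distributed values, and untransformed TPM of 4 different tumours need not be so distributed. The share of all genes that pass the same rule was not examined. Whether 7 of 24 is more than other genes give was therefore not tested, and the groups are listed as a description only. In CD44, HCC4006 stood above the other lines at 5194 TPM attached, 5698 TPM at day 1 and 3711 TPM at day 7. In PROM1 it stood above them at 17.54 TPM at day 7 and 1.291 TPM attached. In ALDH3A1, NCI-H2228 stood above the other lines at 2219 TPM at day 7 and 2433 TPM attached. The groups of a gene hold the same 4 lines and are not independent.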

How the results depend on the processing

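Of 283 alternative log2 fold changes of the members over the 3 state comparisons, 258 kept their direction and their side of the threshold, 24 reversed and 1 passed newly, PROM1 at day 7 with DESeq2, which makes the count there 1. The cause of the reversals was not tested. The cell line term, passed by 6 members, was passed by 7 with DESeq2 and with limma and by 5 to 7 with a line left out.

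Counts over all genes moved widely. At day 1 against attached, where 85 genes passed, 2 did with DESeq2 size factors, 1709 with DESeq2, 265 with no filter, 225 and 223 with limma at pseudocounts of 1 and 0.1, 0 without the replicate block, 0 with only 2 states and 0 without any 1 line. At day 7, where 18 passed, it was 6 with size factors, 1162 with DESeq2, 114 with no filter, 28 at a mean TPM of at least 1, 0 without the replicate block, 1 with only 2 states, and 0 to 1 with a line left out. At day 7 against day 1, where 0 passed, it was 193 with DESeq2, 6 with no filter and 1 with limma at 0.1.

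Without the replicate block, day 1 values were -0.64 for ALDH3A1 and -0.0374 for ABCG2, and day 7 values 0.0127 for CD24, -0.0110 for ALDH1A1 and -0.00767 for ALDH3A1. It changed no member's call. With only 2 states, ABCG2 was at -0.0146 at day 1, and PROM1 at day 1 could not be fitted, since the filter removed it. The filter at a mean TPM of at least 1 removed ALDH1A1, and DESeq2 gave it no adjusted p at day 1. With limma at pseudocounts of 1 and 0.1, CD44 was at -0.0809 and -0.0818 and ABCG2 at -0.23 and -0.29 at day 1, CD24 at 0.00749 and 0.00663 at day 7, and, at day 7 against day 1, EPCAM at 0.0065 and 0.0062 and ALDH1A3 at 0.0814 and 0.11. With a line left out, day 1 values ranged from -0.65 to 0.65 for ALDH1A1, -0.0471 to 1.08 for ALDH3A1 and -0.12 to 0.17 for ABCG2. CD24 at day 7 ranged from -0.19 to 0.0802, and ALDH1A3 at day 7 against day 1 from -0.38 to 0.23. Between scalings the all-gene median moved by at most 0.00888. Depth leaves PROM1 and ALDH1A1 with few counts in several libraries, from 0 in NCI-H2009 for PROM1.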
